A study of Mus musculus with 2 samples.

Results

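The genes described are 10 that encode secreted and surface proteins of the megakaryocyte and its platelets: Pf4, Ppbp, Itga2b, Itgb3, Gp1ba, Gp1bb, Gp5, Gp6, Gp9 and Vwf. They were taken by symbol, which GENCODE M21 (GRCm38) pairs with the gene identifiers of the deposited tables, and all 10 were found among the 43346 genes measured. The samples were whole livers of B6NCrl mouse embryos at embryonic day 15.5, untreated and of no stated mutant genotype. Replicate 2 pooled the livers of 62 embryos and replicate 1 those of 78 embryos, with males and females in each pool. Both libraries belong to 1 group, so the design has no control, and values are set side by side between genes and between the 2 libraries. Levels are in TPM (a level corrected for transcript length and library total), with the added spike-in RNAs left out, and each mean is given with the SD over the 2 libraries.

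Megakaryocytes are large polyploid cells that shed platelets into the blood, and the fetal liver is their main source before the bone marrow takes over. Platelets catch on an injured vessel when von Willebrand factor, a very large plasma protein made by endothelium and megakaryocytes, is held by the GPIb-IX-V receptor. Collagen then signals through GPVI, which needs the Fc receptor gamma chain, and the integrin alpha IIb beta 3 changes shape and binds fibrinogen, which links platelets to each other. The alpha granules store von Willebrand factor and the chemokines encoded by Pf4 and Ppbp, and release them on activation.

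The libraries held 44200863 (replicate 2) and 34039441 (replicate 1) expected counts without spike-ins. The labels give them as separate biological replicates, and their counts differed with a chi-square of 18.0 per degree of freedom over 17601 degrees of freedom (genes with at least 10 counts). Both libraries held all 10 hepatocyte and all 10 erythroid markers at 10 TPM or above. The hepatocyte markers summed to 40862 TPM in replicate 2 and 50643 TPM in replicate 1, and the erythroid markers to 392549 and 384460 TPM.

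In both libraries all 10 platelet genes reached 1 TPM, where 28.4% of all genes did. Both libraries held 7 of the 10 at 10 TPM or above, where 14.3% of all genes were. Together they summed to 496 TPM in replicate 2 and 490.4 TPM in replicate 1, which is 493 ± 3.70 TPM (SD, n = 2). That sum was 0.0493 ± 0.000370% of all TPM. In this bulk tissue, fewer cells of a type and less RNA per cell cannot be told apart. Pf4 and Ppbp, the granule chemokines, made up 78.6% of the sum in replicate 2 and 74.1% in replicate 1. The other 8 genes, which encode the adhesion receptors and von Willebrand factor, summed to 106 TPM in replicate 2 and 127 TPM in replicate 1.

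**Figure D1:**
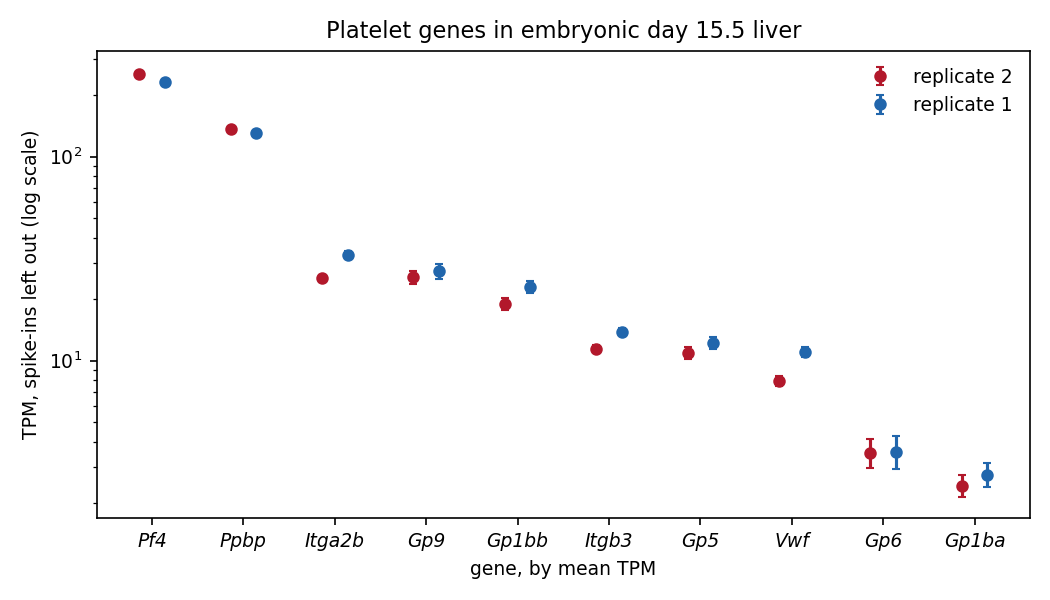
Level of each platelet gene in TPM (log axis), with replicate 2 left of replicate 1 and bars for the exact 95% binomial interval of its counts. The levels run from about 243 TPM for Pf4 down to 2.60 TPM for Gp1ba, with a step of 4.58-fold between the means of Ppbp and Itga2b.

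By mean level the order was Pf4, Ppbp, Itga2b, Gp9, Gp1bb, Itgb3, Gp5, Vwf, Gp6 and Gp1ba. The ranges of neighbouring genes over the libraries overlapped at 3 places: Itga2b with Gp9, Itgb3 with Gp5, and Gp5 with Vwf. Within a library, Itga2b was 0.992-fold the level of Gp9 in replicate 2 and 1.20-fold in replicate 1, so that pair changed order. Itgb3 was above Gp5 in each library, by 1.05-fold in replicate 2 and 1.14-fold in replicate 1, and Gp5 was above Vwf by 1.38-fold and 1.10-fold. The largest step was below the chemokines, where the mean of Ppbp was 4.58-fold that of Itga2b. Among the 12331 genes that reached 1 TPM in each library, Pf4 stood above 96.7% and Ppbp above 93.9%. Gp1ba, which carries the binding site for von Willebrand factor, stood above only 16.4% of them.

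Pf4 (ENSMUSG00000029373) encodes platelet factor 4, a CXC chemokine that binds heparin. It was at 253 TPM in replicate 2 and 233 TPM in replicate 1, from 5167 and 3531 expected counts. Ppbp (ENSMUSG00000029372) encodes pro-platelet basic protein, which is cut to a neutrophil-attracting chemokine. It was at 137 TPM in replicate 2 and 131 TPM in replicate 1. The level of Pf4 was 1.85-fold that of Ppbp in replicate 2 and 1.78-fold in replicate 1, so the order of the pair was the same in both pools. In counts the order was the reverse, since the Ppbp transcript is longer: Ppbp had 5631 and 3996 expected counts, at 1080 nt against 586 nt for Pf4.

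The 2 genes lie side by side on the plus strand of chromosome 5, Pf4 at chr5:90772435-90773383 and Ppbp at chr5:90768518-90770063 (GRCm38), with 2371 bases between them. Each has 3 exons, all coding. The 150 bases before each RefSeq start (RefSeq, GRCm38.p6, plus strand, Pf4 chr5:90772285-90772434 and Ppbp chr5:90768368-90768517) are shown because these neighbours had the highest levels of the group. Capitals mark letters of an ETS-type motif (CCGGAA or AGGAAG, either strand) or a TATA motif (TATAAA, gene strand).
Pf4: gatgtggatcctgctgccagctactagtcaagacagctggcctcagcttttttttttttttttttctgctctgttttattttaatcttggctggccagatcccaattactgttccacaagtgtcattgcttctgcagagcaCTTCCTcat
Ppbp: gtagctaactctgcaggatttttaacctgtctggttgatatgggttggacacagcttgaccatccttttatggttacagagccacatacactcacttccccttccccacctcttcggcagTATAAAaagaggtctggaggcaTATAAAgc
Ppbp had TATAAA at -30 and -8, counted to the leftmost base from the start, and was the only one of 8 members matched in the promoter table with that motif in the window of 250 bases before to 50 after the start. Of all 32851 promoters in the table, 8.32% held it. Pf4 had an ETS-type match at -9 and another at 15. A GATA match (AGATAA or AGATAG or TGATAA or TGATAG, either strand) lay at 37 in Pf4, downstream of the start.

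Of the other CXC chemokine genes within 300 kb of Pf4 on chromosome 5, only Cxcl1 reached 1 TPM in each library. Cxcl5, which attracts neutrophils, lies 10810 bases from Pf4 and was at 0.630 TPM in replicate 2 and 0.331 TPM in replicate 1, from 41 and 16 counts. Cxcl1, another neutrophil attractant, was at 2.26 and 2.59 TPM, 117857 bases from Pf4. Cxcl3 had 1 count in replicate 2 and 0 in replicate 1, and Cxcl2 had 2 and 0. Cxcl15 had 0 counts in both, which allows a level of up to 0.0679 CPM (counts scaled by the library total) in replicate 2 and 0.0881 CPM in replicate 1. High levels in this stretch were thus seen for the 2 platelet chemokines and not for the neutrophil attractants on either side of them. Further along, the albumin family genes Afp and Alb were the only 2 of 13 protein-coding genes within 300 kb of Pf4 at a higher mean level than Pf4. Over the whole list of 15 CXC chemokines, 6 reached 1 TPM in each library. Pf4 and Ppbp led it, followed by Cxcl12, the stromal ligand that holds blood stem cells, at 50.5 TPM in replicate 2 and 53.7 TPM in replicate 1.

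Itga2b and Itgb3 encode the alpha IIb and beta 3 chains of the fibrinogen receptor. Itga2b (ENSMUSG00000034664, chr11:102453297-102470122, minus strand, 30 exons) was at 25.4 TPM in replicate 2 and 33.0 TPM in replicate 1. Itgb3 (ENSMUSG00000020689, chr11:104608000-104670476, plus strand, 15 exons) was at 11.5 TPM in replicate 2 and 13.9 TPM in replicate 1. The alpha chain transcript was above the beta chain transcript in both pools, 2.21-fold in replicate 2 and 2.37-fold in replicate 1. Without length correction the order was the reverse, with 2735 and 2460 expected counts for Itgb3 where Itga2b had 2457 and 2290. On the log2 scale the TPM ratio was 1.20 ± 0.07 (SD, n = 2). It was 0.64 when the counts of each gene were divided by the length of its longest coding transcript, because the counts of its short noncoding transcripts are then divided by the greater length of the coding one.

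The 150 bases before the Itga2b start (RefSeq, GRCm38.p6, chr11:102469884-102470033, minus strand) are shown for the AGGAAG letters, in capitals, that stood at -125 and -43.
Itga2b: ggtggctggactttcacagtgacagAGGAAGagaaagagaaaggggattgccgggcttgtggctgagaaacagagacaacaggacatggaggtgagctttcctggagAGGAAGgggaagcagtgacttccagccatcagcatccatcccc
In its window no GATA letters of the set searched were found. Within 300 kb of Itga2b the highest of 20 protein-coding genes was Slc4a1, the erythrocyte anion exchanger, at 993 TPM in replicate 2 and 1115 TPM in replicate 1.

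The other chains that these subunits can pair with were measured beside them. Itgav, the alpha V chain that also pairs with beta 3 to bind vitronectin, was at 11.5 TPM in replicate 2 and 9.91 TPM in replicate 1. Itga2b was 2.21-fold (replicate 2) and 3.33-fold (replicate 1) above it. The higher TPM of Itgav in replicate 2 was not seen in counts scaled by library totals, where its ratio of replicate 2 to replicate 1 was 0.943 (0.858 to 1.04). The alpha chain genes Itga2b and Itgav together were 3.21-fold the level of Itgb3 in replicate 2 and 3.09-fold in replicate 1. Itgb1, the common beta 1 chain, was at 67.7 and 68.4 TPM, and Itgb3 was 0.169-fold and 0.203-fold its level. Itga2, which pairs with beta 1 as a platelet collagen receptor, was at 0.341 and 0.425 TPM, below the 1 TPM limit in both libraries.

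Genes that carry the signal to the integrin were read from a list of 11 (each detected, here meaning 1 TPM or above in each library). Rap1b, the small GTPase that switches the integrin on, was at 122 TPM in replicate 2 and 120 TPM in replicate 1. Fermt3, the blood cell kindlin that binds the beta chain tail, was at 89.6 and 101 TPM. Rasgrp2, the exchange factor that loads Rap1, was at 82.2 and 75.9 TPM. These 3 led the list, and the kinase gene Src was lowest at 1.63 and 2.01 TPM. All 3 leading genes stood above Itga2b and Itgb3, and blood cells of other lineages use them too.

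The proteins that these receptors bind were among the high transcripts of the tissue. Fga and Fgg, chains of fibrinogen, were at 852 and 765 TPM in replicate 2 and at 1048 and 915 TPM in replicate 1. Vtn, which encodes vitronectin, was at 629.8 TPM in replicate 2 and 779 TPM in replicate 1. Hepatocytes are the known source of all 3. The list of ligands and the von Willebrand factor protease held 10 genes. Its sum was 3075 TPM in replicate 2 and 3738 TPM in replicate 1. It was lower in replicate 2 together with the hepatocyte markers, with which it shares a fibrinogen gene. Of its 8 genes at 5 TPM or more, 5 had a count interval below 1 (24.4% of all genes did). The interval was above 1 for 1 of them (25.2% of all genes). The part of hepatocyte content in that difference was not tested.

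The receptor for von Willebrand factor is built from the products of 4 genes, and their transcripts spanned a 10.2-fold range of mean levels. Gp9, the small leucine-rich chain, was at 25.6 TPM in replicate 2 and 27.4 TPM in replicate 1. Gp1bb, the chain bound to GPIb alpha by disulphide bonds, was at 19.0 and 23.0 TPM. Gp5, the noncovalently held chain that thrombin can cut, was at 10.9 TPM in replicate 2 and 12.2 TPM in replicate 1. The ligand-binding chain gene Gp1ba was lowest, at 2.45 TPM in replicate 2 (95% binomial interval 2.16 to 2.76) and 2.76 TPM in replicate 1 (2.40 to 3.14). Its 262 and 222 expected counts make it, with Gp6, the least precisely measured of the group, and these intervals cover counting error only, since PCR copies without molecular identifiers are not independent molecules.

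Relative to Gp1ba, Gp9 was 10.5-fold higher in replicate 2 and 9.94-fold in replicate 1. Gp1bb was 7.76-fold and 8.33-fold higher. Gp5 was 4.46-fold and 4.42-fold higher. On the log2 scale these ratios were 3.35 ± 0.05 for Gp9, 3.01 ± 0.07 for Gp1bb and 2.15 ± 0.01 for Gp5 (SD, n = 2 each), so each gap was many times the spread between the pools. An SD over 2 libraries can fall below the counting error of Gp1ba, which all 3 ratios share, so it does not give their precision. The 4 genes summed to 57.9 TPM in replicate 2 and 65.3 TPM in replicate 1.

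These genes share a compact structure that the choice of members did not use. Gp1ba (ENSMUSG00000050675, chr11:70639122-70642036, plus strand), Gp5 (ENSMUSG00000047953, chr16:30307685-30310779, minus strand) and Gp9 (ENSMUSG00000030054, chr6:87778072-87779768, plus strand) have 2 exons each, with the whole coding sequence in 1 of them. Gp1bb (ENSMUSG00000050761, chr16:18620317-18622403, minus strand) has 2 exons, both coding, in its transcript Gp1bb-202 (chr16:18620317-18621640), from which its coding length is taken. Their coding lengths are 2202 bases for Gp1ba, 1701 for Gp5, 618 for Gp1bb and 531 for Gp9, and in TPM the levels ran in the opposite order to these lengths. That order rested on the division by length: as CPM, with no length correction, Gp5 averaged 22.6, Gp1bb 20.5, Gp9 17.6 and Gp1ba 6.22. The promoters of Gp1ba, Gp5 and Gp9 (RefSeq, GRCm38.p6, chr11:70638972-70639121 plus, chr16:30310782-30310931 minus and chr6:87777920-87778069 plus) are shown to compare genes of 1 receptor, with GATA and ETS-type letters in capitals.
Gp1ba: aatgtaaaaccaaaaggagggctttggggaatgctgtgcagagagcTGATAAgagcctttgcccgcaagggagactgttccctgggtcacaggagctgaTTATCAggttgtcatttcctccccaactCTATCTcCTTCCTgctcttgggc
Gp5: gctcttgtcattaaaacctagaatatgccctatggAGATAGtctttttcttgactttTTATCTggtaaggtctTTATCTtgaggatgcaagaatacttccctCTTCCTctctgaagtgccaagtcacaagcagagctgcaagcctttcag
Gp9: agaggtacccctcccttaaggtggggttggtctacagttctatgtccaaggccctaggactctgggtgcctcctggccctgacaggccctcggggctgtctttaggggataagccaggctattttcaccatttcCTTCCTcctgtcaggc
Gp1ba had GATA letters at -104, -51 and -23 with an ETS-type match at -16, and Gp5 had GATA letters at -115, -93 and -77 with an ETS-type match at -48. Gp9 had the ETS-type letters alone, at -16. GATA and ETS factors such as GATA1 and FLI1 are known regulators of megakaryocyte genes. Over the same windows of the 8 members matched, 5 held GATA letters, against 29.8% of all promoters, and 6 held ETS-type letters, against 45.2%. Both kinds stood in 4 of the 8 (Gp1ba, Gp1bb, Gp5 and Pf4), against 12.4% of all promoters. Gp1ba and Gp5 have the most GATA letters of the group, and their levels, 2.60 ± 0.218 and 11.5 ± 0.913 TPM, were in the lower part of it. Itgb3 and Vwf were not among the matched genes.

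Gp1bb lies on the same strand as Sept5, a septin gene, and overlaps it. Sept5 was at 2.68 TPM in replicate 2 and 2.67 TPM in replicate 1, and Gp1bb was 7.07-fold and 8.59-fold above it. Reads in the shared stretch could belong to either gene, so the split between them is uncertain. The deposited table also gives Gp1bb different transcript models from the later annotation. Its transcript Gp1bb-201 is 645 nt in the deposited table and 2085 nt in GENCODE M21, and Gp1bb-202 is 1847 nt against 1086 nt. With the longer model alone the level of Gp1bb was 12.6 ± 2.04 TPM (SD, n = 2), where it was 20.97 ± 2.82 TPM over both, and it then lay below Itgb3 in replicate 2 (11.1 against 11.5 TPM) and above it in replicate 1 (14.01 against 13.89 TPM).

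**Figure D2:**
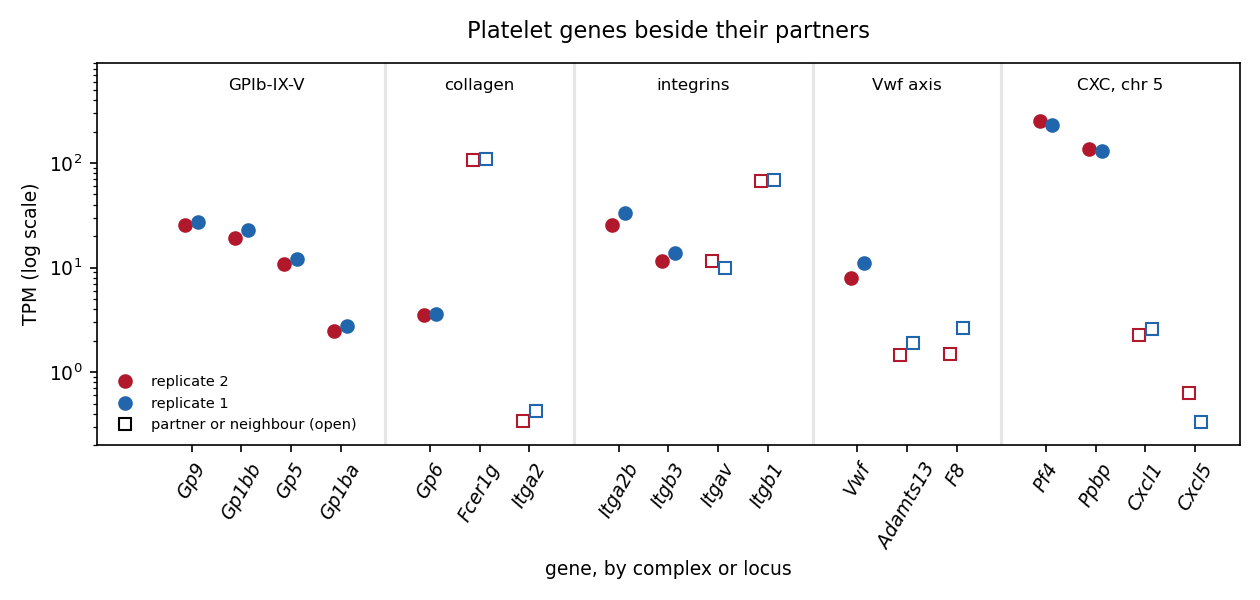
TPM (log axis) of the platelet genes (filled circles) beside partner, ligand and neighbouring genes (open squares), replicate 2 in red and left of replicate 1 in blue. Gp6 lies far below its signalling partner Fcer1g, Itga2 is near the bottom, and the chemokine neighbours Cxcl1 and Cxcl5 lie far below Pf4 and Ppbp.

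Gp6 (ENSMUSG00000078810, chr7:4363965-4397744, minus strand, 7 exons) encodes glycoprotein VI, the collagen receptor found on platelets and megakaryocytes. It was at 3.53 TPM in replicate 2 (95% binomial interval 2.998 to 4.13) and 3.56 TPM in replicate 1 (2.95 to 4.27), from 156 and 117 counts. The interval of replicate 2 lies within that of replicate 1, and a difference was not detectable at this depth. Fcer1g, the gamma chain that GPVI needs to signal and that mast cells, macrophages and neutrophils also use, was at 106 TPM in replicate 2 and 109 TPM in replicate 1. The level of Gp6 was 0.0333-fold that of Fcer1g in replicate 2 and 0.0326-fold in replicate 1. Clec1b, which encodes the podoplanin receptor CLEC-2, was at 22.0 and 25.4 TPM, and Gp6 was 0.160-fold and 0.141-fold its level. In this whole tissue the transcript of this second receptor, which signals through the same kinase, was above that of the collagen receptor in both pools. Which cells held either transcript was not tested, so their order within megakaryocytes or platelets is not known.

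The single Gp6 transcript of the deposited table is 1152 nt long, and GENCODE M21 adds a second of 5900 nt over chr7:4363965-4397744. Reads from its added sequence are not in these counts or in the folds to Fcer1g and Clec1b. In the list of 13 genes of collagen and podoplanin receptor signalling, 12 were detected, with Fcer1g, Itgb1 and Clec1b the highest and Itga2 the lowest.

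Vwf (ENSMUSG00000001930, chr6:125546774-125686679, plus strand) is by far the largest gene of the group, with 52 exons, 51 of them coding, and a coding length of 8439 bases. It was at 7.92 TPM in replicate 2 and 11.1 TPM in replicate 1, from 1240 and 1226 counts. ADAMTS13 is the protease that trims von Willebrand factor, and its gene was at 1.45 TPM in replicate 2 and 1.89 TPM in replicate 1. Factor VIII is the clotting factor that von Willebrand factor carries, and F8 was at 1.48 and 2.65 TPM. Vwf was 5.48-fold and 5.88-fold above Adamts13, and 5.36-fold and 4.18-fold above F8. By the length of its coding transcript Vwf itself was at 3.38 TPM in replicate 2 and 4.51 TPM in replicate 1. Adamts13 and F8 were not recomputed in that way, so the folds on that measure are not known. In expected counts F8 had 272 in each library, and Adamts13 had 188 in replicate 2 and 199 in replicate 1.

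Von Willebrand factor is also an endothelial product, so the endothelial markers are given beside it. All 14 were detected and none was at 0. They summed to 155 TPM in replicate 2 and 179.6 TPM in replicate 1, led by Eng, Stab1 and Lyve1, with Emcn lowest at 1.62 and 1.77 TPM. Their median log2 ratio of replicate 2 to replicate 1 was -0.14 over the 11 at 5 TPM or more in either library, and that of Vwf was -0.44. The part of endothelial content in the level of Vwf was not tested.

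**Figure D3:**
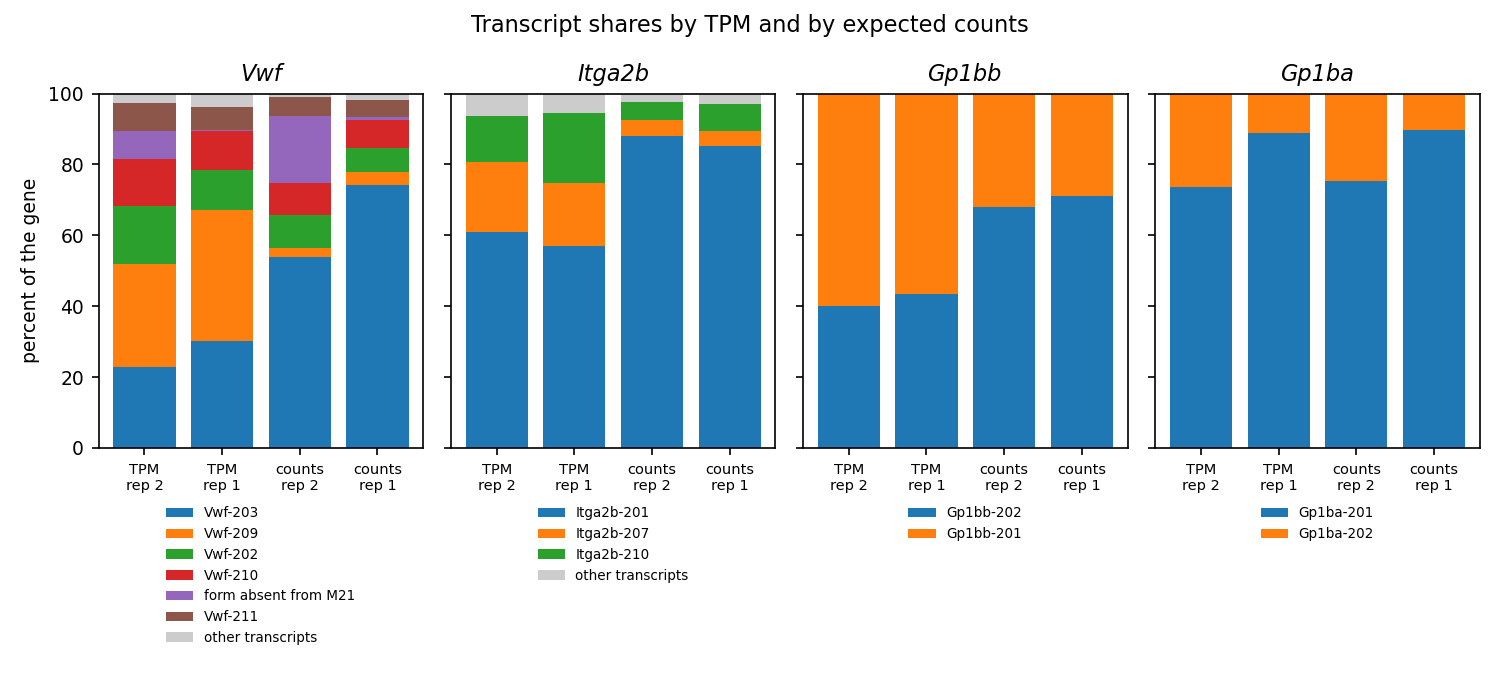
Share of each gene's TPM and of its expected counts, in percent, held by its transcripts in replicate 2 and replicate 1 for Vwf, Itga2b, Gp1bb and Gp1ba. Short transcripts such as Vwf-209 and Itga2b-207 take a far larger share of TPM than of counts.

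Much of the Vwf TPM was assigned to transcripts that GENCODE M21 does not class as protein coding. Vwf-209, a noncoding transcript of 456 nt at the 3′ end of the gene (chr6:125685737-125686635), held 28.9% of the gene's TPM in replicate 2 and 36.9% in replicate 1, but 2.77% and 3.71% of its counts. Those shares rested on 34.3 and 45.5 expected counts. Vwf-209 lies within the span of the full-length Vwf-203, so the split of reads between them is an estimate. The 8 transcripts given another class there together held 52.5% and 58.2% of TPM and 18.1% and 18.2% of counts. They ranged from 334 to 4453 nt and included the nonsense-mediated decay form Vwf-210. The counts lay mostly in full-length forms. Vwf-203, of 8834 nt, held 53.7% of counts in replicate 2 and 74.2% in replicate 1, and a form of 8817 nt that is absent from GENCODE M21 held 19.0% and 0.892%. Summed, these 2 held 72.7% of counts in replicate 2 and 75.1% in replicate 1. How the counts were divided between them depended on the estimate. In posterior mean TPM the 8817 nt form held 14.5% of the gene in replicate 2 and 9.58% in replicate 1, and Vwf-203 held 14.4% and 18.9%. With all counts assigned to the length of Vwf-203, Vwf was at 3.38 TPM in replicate 2 and 4.51 TPM in replicate 1, a mean of 3.94 ± 0.797 TPM where the deposited TPM gave 9.51 ± 2.25 (SD, n = 2 each).

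Itga2b had the same feature to a lesser degree. Its coding transcript Itga2b-201 held 88.1% of counts in replicate 2 and 85.2% in replicate 1, but 60.9% and 56.9% of TPM. Itga2b-207, of 623 nt at the 3′ end, held 19.8% of TPM in replicate 2 and 17.8% in replicate 1 on 4.49% and 4.18% of counts. It lies within the span of Itga2b-201, so this split is an estimate too. By the length of its coding transcript Itga2b was at 19.8 ± 3.18 TPM (SD, n = 2), below Gp9 at 26.5 ± 1.26 TPM. Gp1ba has 2 coding transcripts, and Gp1ba-201 held 73.6% of its TPM in replicate 2 and 88.9% in replicate 1. Itgb3 was almost wholly 1 transcript, Itgb3-201, with 99.8% and 100% of TPM. Pf4, Ppbp, Gp5, Gp6 and Gp9 have a single transcript in the deposited tables.

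Between the pools, 8 of the 10 genes were lower and 2 (Pf4 and Ppbp) higher in replicate 2 in TPM. That split turned to 4 lower and 6 higher with spike-in totals as the scale. Most of all 8781 genes at 5 TPM or more in either library leaned the same way on each scale. Their median log2 ratio was -0.04 in TPM and 0.14 with spike-in totals. None of the 8 genes at 5 TPM or more in either library was past 2-fold on log2(TPM + 1), as were 0.672% of all 8781 genes at that level. The largest difference was in Vwf, with a log2 ratio of replicate 2 to replicate 1 of -0.44. Itga2b followed at -0.37, then Gp1bb and Itgb3 at -0.26 each. Gp5 was at -0.15, Gp1ba at -0.12, Gp9 at -0.09 and Gp6 at -0.01. Pf4 stood at 0.12 and Ppbp at 0.06. The median over the 8 genes at 5 TPM was -0.20, where the median over all 8781 genes was -0.04 with an SD of 0.258.

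For 6 of these 8 genes the 95% interval of the count ratio, which covers counting error alone, left out 1, as it did for 49.5% of all genes. With counts scaled by library totals, the whole interval was above 1 in 2 of them, where 25.2% of all genes were. For Pf4 the ratio was 1.13 (1.08 to 1.18) and for Ppbp 1.09 (1.04 to 1.13). It was below 1 in 4, where 24.4% of all genes were. Vwf had a ratio of 0.779 (0.719 to 0.844), Gp1bb 0.825 (0.746 to 0.911), Itga2b 0.826 (0.780 to 0.875) and Itgb3 0.856 (0.811 to 0.904). For Gp5 and Gp9 the interval held 1. Differences of this size between the pools were common in these libraries, and a pool of embryos on each side gives no test.

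The direction thus depended on the scaling. With spike-in totals the median log2 ratio of all genes itself was 0.14. The genes lower in replicate 2 on all 4 scales tried were Vwf, Itga2b, Gp1bb and Itgb3, and Pf4 and Ppbp were higher on all 4. With TMM or median-of-ratios scaling, 7 were lower and 3 higher, with the median of all genes at 0.02. Relative to the median of all genes, the median of the 8 platelet genes was -0.16 under the deposited TPM and these 3 other scalings alike. The 3 other scalings were applied to counts in place of TPM. In TPM and in scaled counts Pf4 and Ppbp had a higher ratio than each of the other 8 genes. Among the 3 scalings of counts this order is nearly fixed in the same way.

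**Figure D4:**
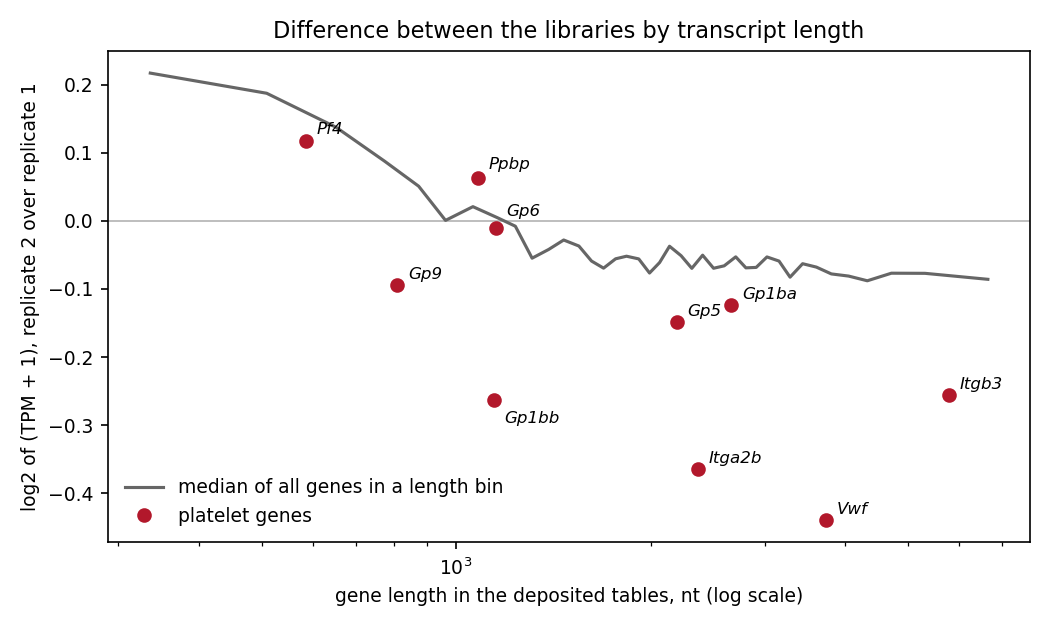
Log2 ratio of replicate 2 to replicate 1 (TPM + 1) of each platelet gene against its length in nt (log axis). Lengths are weighted by the estimated transcript shares. A line gives the median of all genes in 40 bins of length. The line runs from 0.22 for the shortest genes to -0.09 for the longest, and Itga2b, Vwf and Gp1bb lie furthest below it.

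The ratio moved with length, in these genes and in all genes. Length here is the deposited gene length averaged over the libraries, which weights transcripts by their estimated shares. Spearman's rho between length and log2 ratio was -0.71 over the 10 genes and -0.25 over the 8781 genes at 5 TPM or more in either library; both describe the same pair of libraries, and genes are not independent replicates. Pf4, the shortest at 586 nt, had a ratio of 0.12 where the median of all genes of its length was 0.14. Against that median Pf4 was at -0.02 and Ppbp at 0.04, so the chemokine ratios were close to those of other genes of their length. Vwf was still lower by its own bin, at -0.36, as were Itga2b at -0.31 and Gp1bb at -0.27. Their bins rest on weighted lengths of 3738, 2366 and 1145 nt. The forms with most of their counts are longer: 8834 nt for Vwf-203, 3437 nt for Itga2b-201 and 1847 nt for Gp1bb-202. The part of transcript length in the differences between the pools was not tested beyond these values.

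The factors that drive the lineage were all measured, 15 genes of which 14 were detected. Nfe2, needed for platelet release, was at 191 TPM in replicate 2 and 201 TPM in replicate 1. Gata1, the GATA factor shared by red cells and megakaryocytes, was at 108 and 116 TPM. Gfi1b, a repressor of the same 2 lineages, was at 83.9 and 87.9 TPM. Fli1, the ETS factor that favours megakaryocytes over red cells, was far lower, at 8.45 TPM in replicate 2 and 7.54 TPM in replicate 1. The stem cell factor Mecom was lowest, at 0.743 and 0.922 TPM. The 3 leading factors are also those of erythroid cells, whose markers dominate these libraries; the part of erythroid cells in their level was not tested. Of the 11 factors at 5 TPM or more, the count interval was above 1 for 1 and below 1 for 5, where it was above 1 for 25.2% and below 1 for 24.4% of all genes. Their median log2 ratio was -0.09.

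The thrombopoietin axis, which sets megakaryocyte number, was present at modest levels. Thpo, the hormone, which hepatocytes make, was the lowest of the 11 genes at 4.42 TPM in replicate 2 and 5.003 TPM in replicate 1. The signalling genes Stat3, Stat5b and Lyn led the list, at 32.6, 19.5 and 18.3 TPM in replicate 2 and 37.1, 21.1 and 19.2 TPM in replicate 1. None of the 11 had a count interval above 1 (25.2% of all genes did), and 5 had one below 1 (24.4% of all genes did). Their median log2 ratio was -0.15.

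Receptors for soluble agonists were low. Of 10 genes 8 were detected, and 1 reached 10 TPM in each library. F2r, a thrombin receptor that mouse platelets are known to lack and other cells carry, was the highest, at 30.2 TPM in replicate 2 and 33.5 TPM in replicate 1. F2rl2, the thrombin receptor that mouse platelets use as a cofactor, was at 6.98 and 8.27 TPM, and the ATP-gated channel P2rx1 at 6.15 and 6.95 TPM. The adrenergic receptor gene Adra2a was lowest, at 0.0413 and 0.0311 TPM. Of the 3 genes at 5 TPM or more, 2 had a count interval below 1, as had 24.4% of all genes.

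Genes of granules and of proplatelets were broadly detected. All 13 genes of granule formation were detected. Gfi1b led them at 83.9 TPM in replicate 2 and 87.9 TPM in replicate 1. Ap3b1, an adaptor for granule sorting, followed at 14.4 and 13.9 TPM, and Lyst was lowest at 1.55 TPM in both. Of the 18 genes for granule cargo and surface proteins, 16 were detected. Sparc, Cd63 and Cd9 led them at 146, 126 and 112 TPM in replicate 2 and 148, 114 and 131 TPM in replicate 1, and many other cells express all 3. The growth factor gene Pdgfb was lowest, at 0.444 and 0.559 TPM. All 13 genes of the proplatelet cytoskeleton were detected, with the tubulin gene Tuba4a highest at 343 and 361 TPM. Tubb1, the beta tubulin of the platelet ring, was at 22.1 TPM in replicate 2 and 25.0 TPM in replicate 1, close to the levels of Gp1bb and Gp9. Next to Tuba4a stood Gsn at 123 and 134 TPM and Tpm1 at 124 and 108 TPM, and Was was lowest at 2.05 and 1.95 TPM.

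In these lists together, none of the genes at 5 TPM or more in either library was past 2-fold between the pools. Of all 8781 genes at that level only 0.672% were, so this does not set the lists apart. The median log2 ratio was -0.06 for granule formation, -0.08 for granule cargo, -0.13 for the proplatelet cytoskeleton, 0.01 for integrin activation, -0.07 for collagen and podoplanin signalling and -0.28 for the ligands, where all genes had -0.04. The platelet genes themselves had -0.20, the ratio of the ligands and of the hepatocyte markers (-0.31) being lower still.

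Other cells share some of these transcripts, so their markers are given for both pools. The mast cell and basophil markers, 6 of 8 detected, summed to 33.3 TPM in replicate 2 and 32.6 TPM in replicate 1. The stem and progenitor markers, 9 of 11 detected, summed to 64.8 and 67.1 TPM; Itga2b is also a marker of early blood progenitors. The macrophage markers, 10 of 10, summed to 444 TPM in replicate 2 and 521 TPM in replicate 1, with a median log2 ratio of -0.22. The neutrophil and monocyte markers, 10 of 10, summed to 6549.7 TPM in replicate 2 and 6163 TPM in replicate 1, with a median of 0.05. No marker of these lists was at 0 in both libraries. The part of these cells in the levels and ratios of the platelet genes was not tested.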

How the data were processed

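Total RNA longer than 200 nt from embryonic day 15.5 liver, 10 ng per library with spike-ins, was sequenced in 2 libraries, per the labels. The authors deposited expected counts, which estimate the reads or fragments of every gene and transcript and are unscaled. They also deposited TPM and posterior mean TPM, corrected for effective length and scaled to a total that holds the spike-ins, and the bounds of the TPM interval, an estimate taken as a score and not used. Per the companion descriptions, annotation M4 on mm10 was used. RSEM writes columns of these names, with the aligner and quantifier not given in the sources used here. Most effective lengths were 99 nt shorter than the lengths, which raises the TPM of short transcripts.

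TPM was rescaled after 97 spike-in entries (2.03% of counts in replicate 2, 2.24% in replicate 1) were left out. The 26248 numeric entries stayed in the TPM and library totals and were left out of the genes analysed. Symbols and coordinates came from GENCODE M21, which named 42462 of 43346 genes, and promoters from RefSeq (GRCm38.p6), where 8 of the 10 symbols matched. The comparison was log2(TPM + 1) of replicate 2 minus that of replicate 1, with 5 TPM in either library as a filter and 2-fold as the limit. Each count ratio, scaled by library totals, has an exact 95% Clopper-Pearson interval for counting error. Each library is 1 pool and there is 1 group, so no p-value is given. The ratio rule was tested on simulated data. The genes and lists were chosen with earlier results of these data known. Of each list the 3 highest, the lowest and preset partners were named, together with neighbours on the chromosome, and a partner the rule gives is not reported here.

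Alternatives were posterior mean TPM, full lengths, spike-ins kept, counts without length correction, a pseudocount of 0.1, other limits of detection, all genes unfiltered, TMM (edgeR 4.0.16), median-of-ratios (DESeq2 1.42.0) and spike-in scaling, and each library left out. The longest coding transcript and removal of the length trend in 40 bins were chosen after seeing the data. Software was R 4.3.3 and Python 3.11.15 with SciPy 1.17.1, pandas 2.3.3, NumPy 2.4.6 and, for figures, matplotlib 3.10.9.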

Additional observations from a re-analysis of the deposited data

How the results depend on the processing

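The summed level of the 10 platelet genes was 493 TPM. It was 487 TPM with posterior mean TPM, 499 with full lengths, 477 with spike-ins kept in the total, 469.6 by the longest coding transcript and 464 CPM without length correction. The share of Pf4 and Ppbp was 80.2% by the longest coding transcript and 50.3% of counts without length correction. The log2 ratio of Itga2b to Itgb3 was 0.64 by the longest coding transcript. That of Gp1bb to Gp1ba was 2.93 with full lengths and 2.29 by the longest coding transcript, and that of Gp9 to Gp1ba was 3.22 with full lengths. That of Gp5 to Gp1ba was 2.14 with posterior mean TPM and with full lengths, and 2.17 by the longest coding transcript. The median log2 ratio of replicate 2 to replicate 1 over the platelet genes was -0.0193 with spike-in scaling. Of all genes, 229 were past 2-fold without a filter, 30 with TMM, 30 with median-of-ratios and 36 with spike-in scaling, where 59 were in the deposited TPM. The ratio of Pf4 changed sign, to -0.0198, when the length trend was removed. The length-based alternatives, spike-ins kept in the total, spike-in scaling and the dropped filter change these values at least in part by their own construction. For the other changes the cause was not tested.

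With a library left out the sum was 490.4 to 495.6 TPM, the share of Pf4 and Ppbp 74.1% to 78.6%, and the log2 ratios 1.15 to 1.25 (Itga2b to Itgb3), 2.96 to 3.06 (Gp1bb to Gp1ba), 3.31 to 3.39 (Gp9 to Gp1ba) and 2.15 to 2.16 (Gp5 to Gp1ba). Each library alone had all 10 genes at 1 TPM or more. No paired analysis was possible because the 2 libraries belong to 1 group. A single group of 2 pools gives no test, whole tissue does not separate cell types, and counting error is widest for Gp6 and Gp1ba.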
